A study of Mus musculus with 3 samples.

Results

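Ancient short interspersed elements (SINEs) were followed through 3 RNA immunoprecipitation sequencing libraries of mouse hippocampus. Every repeat name beginning with MIR, AmnSINE or MamSINE was taken, which gave 8 of the 18484 names in the count tables: MIR, MIRb, MIRc, MIR3, MIR1_Amn, AmnSINE1, AmnSINE2 and MamSINE1. All 8 had reads in every library. Here MIR stands for mammalian-wide interspersed repeat and not for a microRNA. Each name pools all genomic copies of that repeat, so no chromosome position, host gene or single copy can be given for a value.

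The mice were 9 months old and on a C57BL/6 background in every group. The groups were PS19 mice with a ZBP1 pull-down, PS19 mice with a pull-down of Z-form nucleic acid (ZNA), and wild-type (WT) mice with the same ZNA pull-down. PS19 is a transgenic tauopathy model in which a prion protein promoter drives a mutant human tau, and ZBP1 is a sensor protein whose Zα domains bind left-handed, Z-form nucleic acid. There was 1 library per group, the labels do not say whether a library pools animals, and no input, control-antibody or WT ZBP1 library was analysed here. No value below therefore has a replicate error, no test between conditions was possible, and every interval covers nothing beyond counting error. Without molecular identifiers, 2 reads may be copies of 1 molecule.

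SINEs are short elements that encode no protein and that spread by borrowing the copying enzymes of a LINE, a longer autonomous element. MIR has a head derived from a transfer RNA gene, a conserved core and a tail resembling that of LINE-2, its presumed partner. AmnSINE1 joins parts derived from ribosomal and transfer RNA genes to a core shared with SINEs of fish and other vertebrates, and some of its copies are known to act as enhancers in the developing brain. These families stopped moving long ago, so their copies in the mouse are diverged fragments, many of them inside introns and other transcribed sequence. The mouse's own SINEs, by contrast, include B1, which descends from the RNA of the signal recognition particle, and B2, which descends from a transfer RNA. The counts do not separate a transcript that starts in a SINE from a longer transcript that contains one.

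The libraries held 1425383 reads on repeat names for PS19 ZBP1, 2918985 for PS19 ZNA and 3234786 for WT ZNA. The names LSU-rRNA_Hsa and SSU-rRNA_Hsa, the large and small ribosomal RNA (rRNA), took 94.8%, 89.4% and 95.5% of them. Reads outside rRNA numbered 74474, 308613 and 145372, and values below are given both per library total, as CPM, counts scaled to 1000000 reads on all repeat names, and per reads outside rRNA. A count of 0 would allow up to 3 reads, which is 2.10, 1.03 and 0.927 CPM in these libraries. BC1_Mm, the name of a small cytoplasmic RNA of neurons and the only marker of the tissue among the names, had 33, 146 and 77 reads.

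The 8 names together were a small part of every library. They held 721 reads in PS19 ZBP1, 1737 in PS19 ZNA and 956 in WT ZNA. Per library total this was 0.0506% (95% Wilson interval 0.0470 to 0.0544%), 0.0595% (0.0568 to 0.0624%) and 0.0296% (0.0277 to 0.0315%). The WT ZNA library was thus the lowest of the 3 on this scale, and the PS19 ZNA library the highest. Of the reads outside rRNA, the 8 names took 0.968% in PS19 ZBP1 (0.9003 to 1.041%), 0.563% in PS19 ZNA (0.537 to 0.590%) and 0.658% in WT ZNA (0.6174 to 0.7005%). On that scale the ZBP1 library was the highest and the PS19 ZNA library the lowest, and no pair of these intervals overlapped.

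The MIR names made up nearly all of these reads. MIRb had 263 reads in PS19 ZBP1, 695 in PS19 ZNA and 399 in WT ZNA, and MIR had 272, 644 and 341 in the same order. In CPM these were 185, 238 and 123 for MIRb and 191, 221 and 105 for MIR. MIRb and MIR are the commonest subfamilies of the element by reads here, and for both the 3 libraries fell in the same order per library total. MIRc had 92, 218 and 130 reads (64.5, 74.7 and 40.2 CPM). MIR3 had 44, 92 and 42 reads (30.9, 31.5 and 13.0 CPM). The PS19 libraries thus lay close together for MIR3 per library total, with the WT library below both. On the scale of reads outside rRNA the ZNA libraries lay close together instead, with MIR3 1.03-fold higher in PS19 than in WT. There the PS19 ZBP1 library lay above both, 1.98-fold above PS19 ZNA and 2.04-fold above WT ZNA.

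The rarer names had far fewer reads. Per library total, AmnSINE1 and AmnSINE2 kept the order of MIRb and MIR. MIR1_Amn and, only slightly, MamSINE1 instead had PS19 ZBP1 above PS19 ZNA. MIR1_Amn, the MIR relative shared with other amniotes, had 28 reads in PS19 ZBP1, 31 in PS19 ZNA and 19 in WT ZNA, or 19.6, 10.6 and 5.87 CPM. It was the one MIR name with more CPM in the ZBP1 than in the PS19 ZNA library. AmnSINE1 had 9, 30 and 9 reads (6.31, 10.3 and 2.78 CPM) and was highest in PS19 ZNA. MamSINE1, a SINE of mammals, had 11, 21 and 14 reads (7.72, 7.19 and 4.33 CPM), with overlapping Poisson intervals in all 3 libraries. AmnSINE2 had 2, 6 and 2 reads, which in the ZBP1 and WT libraries is below the limit that a count of 0 allows. Lengths and copy numbers of the repeats were not used here, so the read counts do not rank the names by transcript level.

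**Figure D1:**
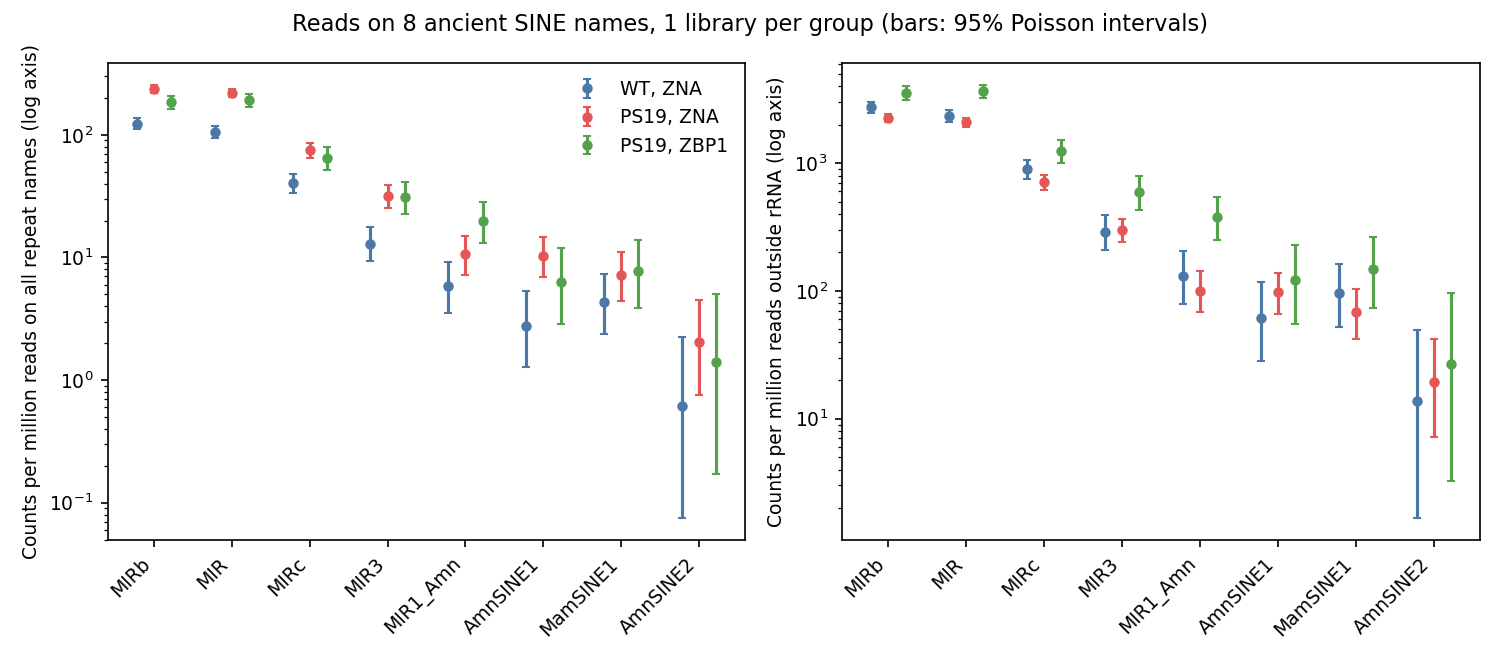
Reads on each of the 8 names in the 3 libraries, as counts per 1000000 reads on all repeat names (CPM, left) and per 1000000 reads outside rRNA (right), both on log axes. Points are single libraries and bars are 95% Poisson intervals of the count; MIRb and MIR lie between 105 and 238 CPM, and on the right the ZBP1 point is the highest for every name.

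The make-up of the ancient SINE reads was similar across libraries. The 5 MIR names held 96.9% of them in PS19 ZBP1, 96.7% in PS19 ZNA and 97.4% in WT ZNA. MIRb took 36.5% (33.0 to 40.1%), 40.0% (37.7 to 42.3%) and 41.7% (38.6 to 44.9%), and MIR took 37.7%, 37.1% and 35.7%. MIRb was ahead of MIR in both ZNA libraries and behind it in the ZBP1 library, but the exact intervals of MIRb per 100 reads of MIR overlapped between all 3: 96.7 (81.3 to 115) in PS19 ZBP1, 108 (96.8 to 120) in PS19 ZNA and 117 (101 to 136) in WT ZNA. MIRc made up between 12.6% and 13.6% of the family reads and MIR3 between 4.39% and 6.10%. MIR1_Amn took 3.88% in PS19 ZBP1 (2.70 to 5.56%), 1.78% in PS19 ZNA (1.26 to 2.52%) and 1.99% in WT ZNA (1.28 to 3.08%), so that the ZBP1 interval lay above that of PS19 ZNA and overlapped that of WT ZNA. The AmnSINE and MamSINE names together gave 3.15 reads per 100 MIR reads in PS19 ZBP1 (1.96 to 4.80), 3.39 in PS19 ZNA (2.56 to 4.42) and 2.69 in WT ZNA (1.73 to 3.99), and a difference among these was not detectable at this depth.

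**Figure D2:**
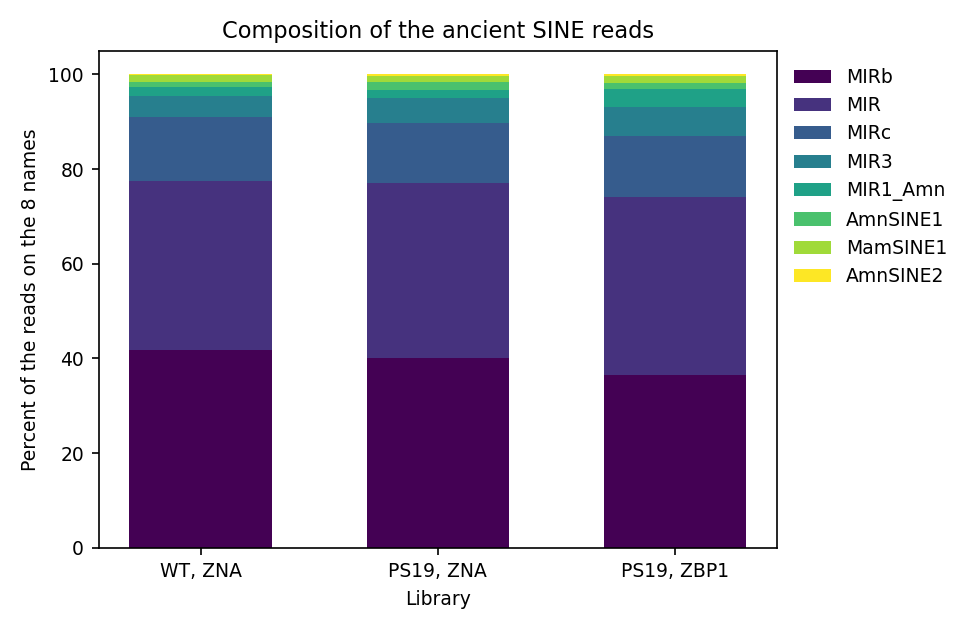
Percent of the reads on the 8 ancient SINE names that fell on each name, 1 stacked bar per library. MIRb and MIR fill most of each bar, with MIRb at 36.5% in the ZBP1 library of PS19 and at 40.0% and 41.7% in the ZNA libraries of PS19 and WT.

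The first comparison set the ZNA pull-down of PS19 against that of WT. Per library total the ancient SINEs were 2.01-fold higher in PS19 (95% exact interval 1.86 to 2.18), while per reads outside rRNA they were 1.17-fold lower (1.08 to 1.27). The share of rRNA differed between these libraries, as given above, and the direction of the family's difference turned with the scaling. By subfamily, MIR was 2.09-fold higher per library total (1.83 to 2.39), MIRb 1.93-fold (1.70 to 2.19), MIRc 1.86-fold (1.49 to 2.33) and MIR3 2.43-fold (1.67 to 3.59). Per reads outside rRNA, MIRb was 1.22-fold lower in PS19 (1.07 to 1.38) and MIRc 1.27-fold lower (1.01 to 1.58). The interval of MIR on that scale, 1.12-fold lower, ran from 1.28-fold lower to 1.02-fold higher, and that of MIR3, 1.03-fold higher, ran from 0.709 to 1.52.

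The AmnSINE and MamSINE names rest on few reads in this comparison. AmnSINE1 was 3.69-fold higher in PS19 per library total (1.71 to 8.85) and 1.57-fold higher per reads outside rRNA, where the interval of 0.727 to 3.76 included no difference. MamSINE1 was 1.66-fold higher per library total (0.806 to 3.53). AmnSINE2 had 6 reads in PS19 and 2 in WT, a ratio of 3.32 with an interval of 0.594 to 33.7. Against the other 7 names pooled, each of the 8 names had an interval that included equal ratios, so no subfamily could be told from the rest at this depth.

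Set among all names, most of the ancient SINE names lay in the lower part of the range. Names entered this count if both libraries together averaged 1 CPM or more and held at least 20 reads. Log2 ratios used CPM plus a pseudocount of 1 and so understate the difference of a name with few reads. Of the 7 members that passed (all but AmnSINE2), 3 were at least 2-fold higher in PS19, namely MIR, MIR3 and AmnSINE1, and 0 were 2-fold lower. Over all names, 713 were compared, of which 74.3% passed 2-fold upwards and 0.421% downwards. With a pseudocount of 5, AmnSINE1 fell short of 2-fold at a log2 ratio of 0.97, which left 2 of 7 members against 52.5% of all names. The median log2 ratio was 0.94 for the 7 members and 1.24 for all names, the latter with an interquartile range of 0.99 to 1.45. Ranked from the highest of the 713 names, AmnSINE1 stood at place 115, MIR3 at 377, MIR at 500, MIRb at 548, MIRc at 572, MIR1_Amn at 606 and MamSINE1 at 636. Per reads outside rRNA, 0 of the 7 passed 2-fold in either direction, against 3.52% of 711 names higher and 2.39% lower. On that scale 2 of the 7 members, MIR3 and AmnSINE1, lay above 0, against 59.6% of all names, and the median was -0.28 for the members and 0.07 for all names.

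Within PS19, the pull-downs of ZBP1 and of ZNA were compared next. Per library total the ancient SINEs were 1.18-fold lower in the ZBP1 library (1.08 to 1.28), and per reads outside rRNA they were 1.72-fold higher (1.57 to 1.88), so the direction again turned with the scaling. Without MIRb, the log2 ratio per library total was -0.15, with an interval of -0.31 to 0.0081 that included no difference. MIRb was 1.29-fold lower per library total (1.12 to 1.49) and 1.57-fold higher per reads outside rRNA (1.36 to 1.81). MIR was 1.16-fold lower (1.002 to 1.337) and 1.75-fold higher (1.51 to 2.02) on these scales. MIRc was 1.75-fold higher (1.36 to 2.24) and MIR3 1.98-fold higher (1.35 to 2.87) per reads outside rRNA, and per library total both had intervals that included no difference.

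MIR1_Amn kept its direction under both scalings. It was 1.85-fold higher in the ZBP1 library per library total (1.07 to 3.19) and 3.74-fold higher per reads outside rRNA (2.16 to 6.45), on 28 and 31 reads. Its ratio was 2.22 times that of the other 7 names together (1.32 to 3.73), the only one of the 8 whose interval lay apart from 1 in this comparison. MIR1_Amn was known to have a high ratio in these libraries before it was examined here, so this is a description. AmnSINE1, with 9 and 30 reads, was 1.63-fold lower per library total (interval from 3.90-fold lower to 1.33-fold higher) and 1.24-fold higher per reads outside rRNA (0.519 to 2.69). MamSINE1 was 1.07-fold higher per library total (0.467 to 2.33) and 2.17-fold higher per reads outside rRNA (0.945 to 4.71). AmnSINE2, with 2 and 6 reads, was 1.46-fold lower per library total (from 14.8-fold lower to 3.82-fold higher) and 1.38-fold higher per reads outside rRNA (0.136 to 7.72).

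Per library total, 0 of the 7 members that passed the filter were 2-fold higher or lower in the ZBP1 library, where 0.293% of 682 names were higher and 50.1% lower. The median log2 ratio was -0.21 for the members and -1.002 for all names. Per reads outside rRNA, 1 member, MIR1_Amn, was at least 2-fold higher and 0 lower, against 8.09% of 680 names higher and 7.94% lower. These calls use the pseudocount of 1, with which MamSINE1 fell short of 2-fold at a log2 ratio of 0.96. All 7 members lay above 0 on that scale, with a median of 0.80, while 47.2% of all names did and their median was -0.05. Also above 0 were all 24 rodent SINE names compared (median 1.13), all 6 LINE-2 names (0.36) and 2 of 2 CR1-type names (0.63). Of 70 ancient LINE-1 names (L1M and HAL1), 17 were above 0 (median -0.32). Per library total, 0 of the 24 rodent SINE names and 0 of the 6 LINE-2 names were 2-fold lower, against 51 of the 70 L1M and HAL1 names. A high ratio was therefore not particular to the ancient SINEs. Among the 682 names ranked by log2 ratio from the highest, MIR1_Amn stood at place 6, MamSINE1 at 54, MIR3 at 69, MIRc at 102, MIR at 104, MIRb at 144 and AmnSINE1 at 213.

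**Figure D3:**
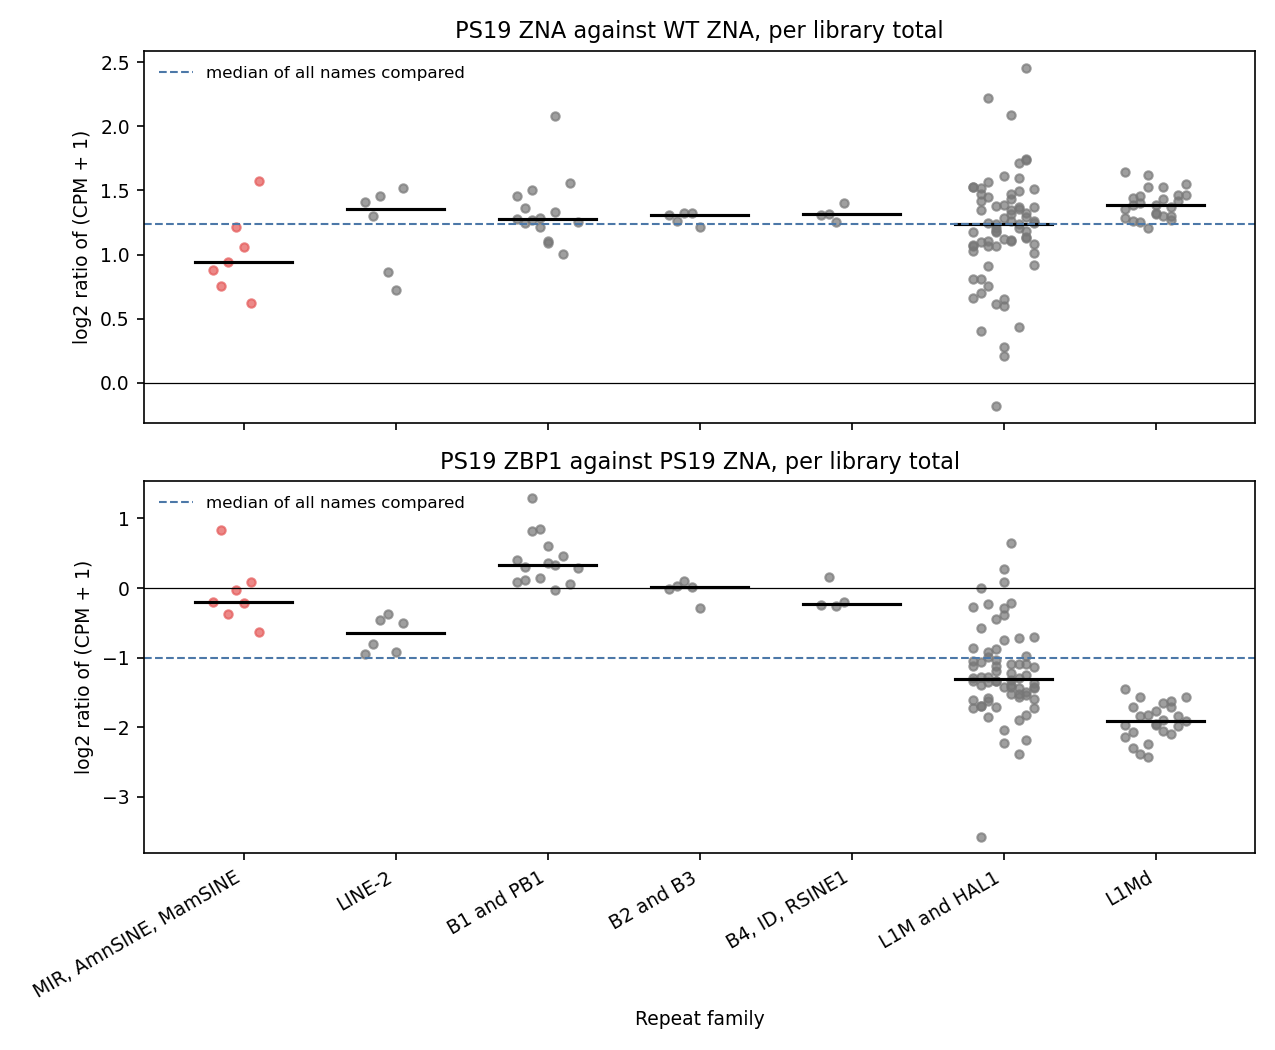
The log2 ratio of (CPM + 1) per library total for each name that passed the filter, by repeat family, for PS19 ZNA against WT ZNA (top) and PS19 ZBP1 against PS19 ZNA (bottom). Points are names, short bars are family medians and the dashed line is the median of all names; the 7 ancient SINE names have a median of 0.94 in the top panel and -0.21 in the bottom panel, against 1.24 and -1.002 for all names. Per reads outside rRNA the members' medians turn to -0.28 and 0.80, against 0.07 and -0.05.

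The PS19 ZBP1 library was also set against WT ZNA, a comparison in which both genotype and antibody differ and which shares its libraries with the previous pair of comparisons. The ancient SINEs were 1.71-fold higher per library total (1.55 to 1.89) and 1.47-fold higher per reads outside rRNA (1.33 to 1.62), and here the direction did not depend on the scaling. MIR1_Amn was 3.34-fold (1.80 to 6.34) and 2.88-fold higher (1.55 to 5.45), MIR3 2.38-fold (1.52 to 3.72) and 2.04-fold (1.31 to 3.20), and MIR 1.81-fold (1.54 to 2.13) and 1.56-fold (1.32 to 1.83) on these scales. MIRb, at 1.496-fold (1.28 to 1.75) and 1.29-fold (1.10 to 1.51), had a ratio 1.25 times below that of the other 7 names (1.02 to 1.52), and MIR1_Amn had one 1.99 times above it (1.10 to 3.60). The remaining 6 names had intervals that included equal ratios. AmnSINE1 had 9 reads in each library and an interval of 0.798 to 6.45 around 2.27-fold per library total. AmnSINE2 had 2 reads in each, and no fold is given. Of the 6 members compared (AmnSINE1 and AmnSINE2 had too few reads), 2 (MIR3 and MIR1_Amn) were at least 2-fold higher per library total, against 12.9% of 574 names, and 0 were lower, against 3.48%. Per reads outside rRNA 1 was higher, MIR1_Amn, against 9.27% of 572 names, and 0 lower, against 6.29%. These calls use the pseudocount of 1, with which MIR3 fell just short of 2-fold at a log2 ratio of 0.99.

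To describe the ancient SINEs without library totals or rRNA, their reads were set against those of other repeat families within each library. The 9 names of LINE-2, the presumed partner of MIR, held 1230, 4272 and 1840 reads in PS19 ZBP1, PS19 ZNA and WT ZNA. Per 100 LINE-2 reads there were 58.6 reads of the 8 names in PS19 ZBP1 (53.4 to 64.3), 40.7 in PS19 ZNA (38.4 to 43.0) and 52.0 in WT ZNA (48.0 to 56.2). Relative to LINE-2, the ancient SINEs were thus 1.28-fold lower in PS19 ZNA than in WT ZNA (1.16 to 1.41) and 1.44-fold higher in PS19 ZBP1 than in PS19 ZNA (1.29 to 1.61). PS19 ZBP1 was 1.13-fold above WT ZNA in this ratio, with an interval that reached down to equality and up to 1.27. Without the name with the most reads in each family, MIRb and L2a, it was 1.18-fold above (1.01 to 1.37).

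Against the rodents' own SINEs the pattern was different for the ZBP1 library. The 28 names of B1, PB1, B2, B3, B4, ID and RSINE1 held 15792, 33200 and 14892 reads in the 3 libraries. Per 100 of these reads there were 4.57 reads of the 8 names in PS19 ZBP1 (4.23 to 4.92), 5.23 in PS19 ZNA (4.98 to 5.49) and 6.42 in WT ZNA (6.01 to 6.85). In the PS19 ZNA library the ancient SINEs were 1.23-fold lower relative to rodent SINEs than in WT ZNA (1.13 to 1.33), and in the ZBP1 library they were a further 1.15-fold lower than in PS19 ZNA (1.05 to 1.25). The latter ratio was 1.46-fold lower against B1 and PB1 (1.33 to 1.62), 1.18-fold lower against B2 and B3 (1.08 to 1.30), and 1.03-fold lower against B4, ID and RSINE1, where the interval of 0.941 to 1.13 included no difference.

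Ancient LINE-1 names (L1M and HAL1, 89 names) and CR1-type names (L3 and CR1) gave the remaining contrasts. Per 100 reads of L1M and HAL1 there were 21.7 reads of the 8 names in PS19 ZBP1 (19.99 to 23.52), 9.72 in PS19 ZNA (9.25 to 10.2) and 11.9 in WT ZNA (11.1 to 12.7). The ZBP1 library was 2.23-fold above the ZNA library of PS19 in this ratio (2.03 to 2.45). Against L3 and CR1 the ZBP1 to ZNA ratio was 1.19 with an interval of 0.972 to 1.47 that included no difference. In the PS19 against WT comparison the ancient SINEs were lower relative to each of the 6 families set against them, with ratios between 0.746 and 0.823, and no interval included equality. These 6 ratios share the reads of the 8 names and are not independent of each other.

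**Figure D4:**
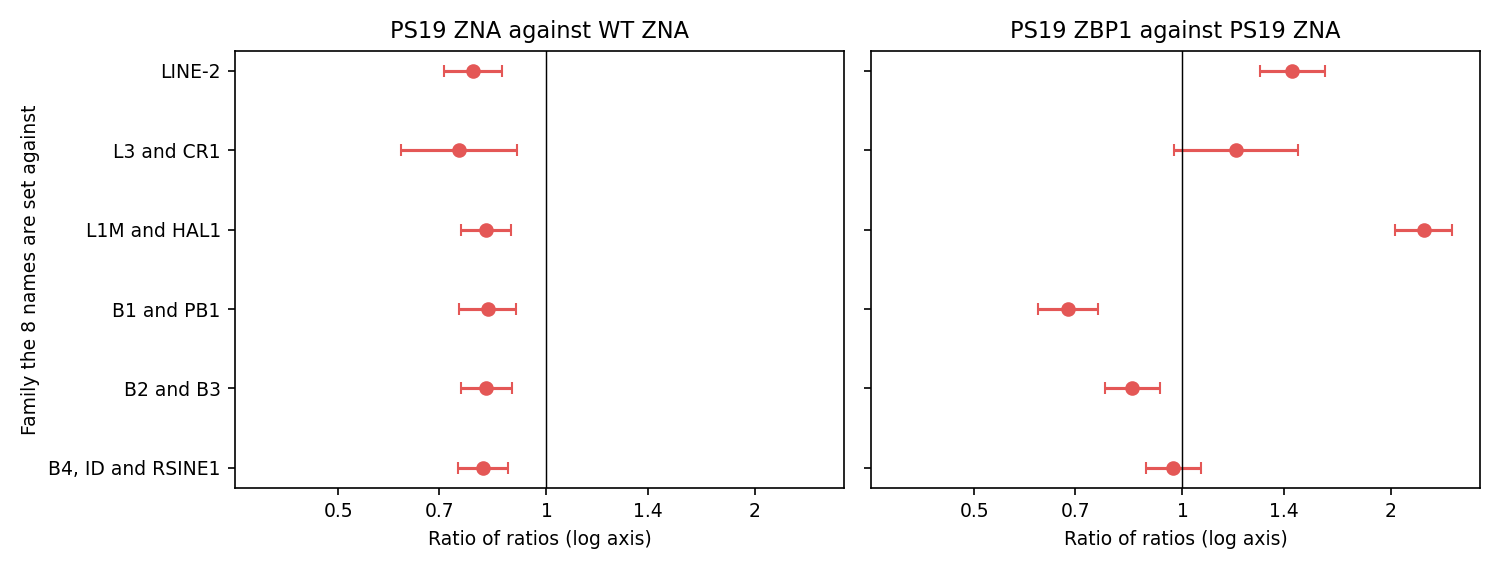
Reads on the 8 ancient SINE names relative to the reads of 6 other repeat families, as the ratio of the within-library ratios of 2 libraries on a log axis, with 95% intervals from the counts. In the left panel (PS19 ZNA against WT ZNA) all 6 points lie between 0.746 and 0.823; in the right panel (PS19 ZBP1 against PS19 ZNA) they run from 0.683 against B1 and PB1 to 2.23 against L1M and HAL1.

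Names outside the family whose values most resembled its pooled values were found by the distance between their pairs of log2 ratios, PS19 ZNA over WT ZNA and PS19 ZBP1 over PS19 ZNA, per library total. The ratios come from 3 libraries and share the PS19 ZNA library. The candidates were 460 names averaging 10 CPM or more, and the nearest 5 were MLT1G1 (distance 0.036), ORR1G (0.061), ERVB4_2-I_MM (0.069), MLT2B4 (0.069) and MER58B (0.082). ORR1G, a MaLR retrotransposon name with 248, 573 and 315 reads in PS19 ZBP1, PS19 ZNA and WT ZNA, had log2 ratios of 1.004 and -0.17. MLT1G1, an ancient MaLR name, had 18, 44 and 22 reads and log2 ratios of 1.04 and -0.24. None of the 5 is a SINE or LINE-2 name, but such names are few. Of the 682 names compared for PS19 ZBP1 against PS19 ZNA at the filter of 1 CPM, 24 were rodent SINE and 6 LINE-2 names. The distances leave counting error out, so which names come nearest is uncertain.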

How the data were processed

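RNA that came down with each antibody was sequenced from 3 hippocampal libraries, 1 per group, grouped by sample title. The deposited files hold raw read counts, 1 whole number for each repeat name, as their headers and values show. Per the submitters' processing notes, Trim Galore 0.6.5, STAR 2.5.3a, featureCounts 2.0.4 and the build mm39 were used. The repeat annotation, strand setting and handling of multi-mapping reads are not given in the sources used here. Such choices can move reads between related subfamilies such as MIR, MIRb and MIRc, so single names are less certain than the family.

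CPM and ratios were computed from these counts with Python 3.11.15, numpy 2.4.6, pandas 2.3.3 and scipy 1.17.1, and TMM factors with R 4.3.3 and edgeR 4.0.16. For log2 ratios per reads outside rRNA, totals were rescaled to the geometric mean of the library totals, so that the pseudocount weighs alike. Ratio intervals are exact conditional 95% intervals; those of ratios of within-library ratios are normal on the log scale. With 1 library per group, no p-value was computed. The calculation was tested on simulated data. The members and family lists were chosen with earlier results of these data known. All 8 members are named; other names follow the likeness rule (the 5 nearest names at a mean of at least 10 CPM). The alternatives were reads outside rRNA, TMM, pseudocounts of 0.1 and 5, dropping the filter or raising it to 10 CPM, limits of 1.5-fold and 4-fold, and leaving out the name with the most reads.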

Additional observations from a re-analysis of the deposited data

How the results depend on the processing

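Scaling decided the direction of 2 of the 3 pooled differences. The pooled log2 ratio of PS19 ZNA against WT ZNA was 1.01 per library total, -0.22 per reads outside rRNA and -0.22 under TMM. That of PS19 ZBP1 against PS19 ZNA went from -0.23 to 0.78 and 0.63, and that of PS19 ZBP1 against WT ZNA from 0.78 to 0.56 and 0.41. In PS19 against WT, 5 names changed sign under both scalings: MIR (1.06 to -0.17 and -0.16), MIRb (0.94 to -0.28 and -0.28), MIRc (0.88 to -0.33 and -0.33), MIR1_Amn (0.76 to -0.33 and -0.33) and MamSINE1 (0.62 to -0.42 and -0.41). Members at least 2-fold higher in PS19 ZNA than in WT went from 3 to 0 under both scalings (all names 3.52% and 3.51%). They went to 0 at 4-fold (all names 3.79%) and to 7 at 1.5-fold (all names 90.7%). With a pseudocount of 5 they were 2 of 7 (52.5%), and with a filter of 10 CPM 2 of 4 (83.6%). Members 2-fold higher in ZBP1 than in ZNA of PS19 went from 0 to 1 under both scalings (all names 8.09% and 5.13%). At 1.5-fold 1 was higher (all names 2.05%) and 1 was lower too (all names 70.5%). Members higher in PS19 ZBP1 than in WT ZNA went from 2 to 1 under both scalings (all names 9.27% and 6.79%). They went to 1 with a pseudocount of 5 (8.19%), to 5 at 1.5-fold (33.6%) and to 0 at 4-fold (1.39%). Over all names, 530 higher and 3 lower in PS19 ZNA than in WT became 25 and 17 per reads outside rRNA and 25 and 19 under TMM; 2 higher and 342 lower in PS19 ZBP1 than in PS19 ZNA became 55 and 54, and 35 and 74; 74 higher and 20 lower in PS19 ZBP1 than in WT ZNA became 53 and 36, and 39 and 48. The moves per reads outside rRNA follow from the construction, since rRNA sets the library total, and those with the fold limit from the limit itself. A larger pseudocount draws each log2 ratio towards 0 by construction. For TMM the cause was not tested. Leaving out MIRb, the name with the most reads, kept the pooled values within the counting intervals of the full family, although that of PS19 ZBP1 against PS19 ZNA then included no difference (-0.15, -0.31 to 0.0081). Leaving out MIRb with L2a or B4A likewise kept the ratios against LINE-2 and rodent SINEs within theirs. Of 92 recomputed values of single members, 67 stayed within their counting interval, among them all 23 at each of the other pseudocounts. Per reads outside rRNA, 11 values stayed within it and 11 left it. The remaining 1, MIR in PS19 ZNA against WT ZNA, went from a 2-fold call upwards to a log2 ratio of -0.17. Under TMM, 10 stayed, 12 left it and the same value of MIR went to -0.16. On neither scale was MIR 2-fold lower. No paired analysis was possible because each group has 1 library. Depth limits the AmnSINE and MamSINE names most.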
